A study of Mus musculus with 27 samples.

Results

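The colon and the jejunum, the middle stretch of the small intestine, use different sets of genes, and the control libraries of this series allow that difference to be followed from tissue into organoids of the same segments. For each gene the colon minus jejunum difference was estimated in organoids and in tissue on the log2 scale. The interaction, which is the organoid difference minus the tissue difference, measures how far the 2 differ. Of 23420 genes counted, 13707 had enough counts to be tested, and 2588 of these had a tissue difference that was kept, lost or turned in organoids. A difference was called at an adjusted p under 0.05 in edgeR's quasi-likelihood test with Benjamini-Hochberg adjustment over all genes tested. A kept gene was called in organoids and in tissue with the same sign and with at least 1 on the log2 scale in each. A lost gene was called in tissue with at least 1, was not called and under 1 in organoids, and had its interaction called. A turned gene was called with at least 1 in organoids and in tissue, with opposite signs, and had its interaction called. The mirror image of a lost gene, with a difference called in organoids and none in tissue, is termed gained here and is described last.

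The mice were C57BL/6, an inbred laboratory strain, and the control mice drank water for 8 weeks. Their ages are not given in the sources used here. Of the 27 libraries, 13 were of control mice: 2 of colon organoids, 4 of jejunum organoids, 4 of colon tissue and 3 of jejunum tissue. The other 14 came from mice given 15% ethanol for 8 weeks (2, 4, 4 and 4 libraries in the same order) and served as a second set in which the classes had not been defined. Organoids are gel-embedded cultures grown from the stem cells of intestinal crypts, here by the method of Sato and Clevers, which was first described for the small intestine. They consist of epithelium, whereas the tissue samples also carried muscle, connective tissue and blood cells. The labels do not give the passage of the cultures or the stretch of colon they came from. A donor number is given for each library and recurs across groups and treatments, but the labels do not say whether such libraries share a mouse. The p-values therefore measure the spread between these libraries, which may be partly technical. RNA was read with the QuantSeq kit, which reads the 3' end of each transcript.

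The gut epithelium is patterned along its length during development by Hox genes and by the caudal-type factors Cdx1 and Cdx2. In the adult small intestine Gata4 and the HNF4 factors drive genes for digestion and absorption, and Paneth cells at the crypt base release defensins. The mouse colon has no villi and no Paneth cells, is rich in goblet cells and takes up salt and water. Organoids are known to carry part of their regional programme in culture, where mesenchymal signals are replaced by the factors of the medium, and where bile, food and microbes are absent.

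Library depth and agreement differed between the groups. Counts outside Rn45s, the precursor of ribosomal RNA, were 2036195 and 818240 in the colon organoid libraries, 4083461 to 5429194 in jejunum organoids, 3536937 to 6349339 in colon tissue and 684906 to 1510057 in jejunum tissue. Rn45s took 76.3 to 84.3% of all counts in jejunum tissue and 18.3 to 38.8% in the other groups. Levels are given as CPM, scaled to each library's counts outside Rn45s times its TMM factor (0.726 to 1.4), which evens out differences in composition between libraries. A total of 3 counts over a group, used as the floor where a group had no count, then stands for 0.821 CPM in colon organoids, 0.165 CPM in jejunum organoids, 0.149 CPM in colon tissue and 1.11 CPM in jejunum tissue. By rank the 2 colon organoid libraries were the least alike, with a Spearman correlation of 0.702 over genes, against 0.98 to 0.987 in jejunum organoids, 0.932 to 0.983 in colon tissue and 0.887 to 0.924 in jejunum tissue. By the chi-square per degree of freedom of their counts, which also grows with depth, colon tissue library 1 was farther from the other 3 of its group (60.9 to 83.6) than the colon organoid libraries were from each other (34.3). This library held 152 CPM of Hoxb13, a Hox gene of the most distal gut, against 0 to 0.259 CPM in the other 3, and 689 CPM of the colonocyte enzyme Car1, against 17120.5 to 28607 CPM. Values per library are therefore given in the order of the library numbers, and class counts are given with and without these libraries.

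Paneth cell and smooth muscle genes followed the labels, and lists of colon cell types did so only in part. Colonocyte genes summed to 4344 to 4902 CPM in colon organoids and 3370 to 4170 CPM in jejunum organoids. In tissue they summed to 9563 to 52190 CPM in colon and 8709 to 11130 CPM in jejunum. Goblet cell genes, given below, summed lower in colon organoids than in jejunum organoids, and higher in colon tissue than in jejunum tissue. The summed level of 26 Paneth cell genes was 210.3 to 244 CPM in colon organoids and 20660 to 34440 CPM in jejunum organoids. It was 159 to 274 CPM in colon tissue and 22090 to 36650 CPM in jejunum tissue, and 15 of the 26 genes were at 0 in colon organoids. The summed level of 13 smooth muscle genes was 81.3 to 124 CPM in colon organoids and 122 to 172 CPM in jejunum organoids, against 6237 to 20700 CPM in colon tissue and 1565 to 5345 CPM in jejunum tissue. In the smooth muscle list, 9 of 13 genes tested were called higher in colon tissue, where 16.9% of all genes tested were, and 8 of the 13 had a tissue difference that fell in none of the 3 classes. Macrophage and dendritic cell genes summed to 100.4 to 183 CPM in colon organoids and 63.2 to 94.5 CPM in jejunum organoids, against 439.8 to 599 CPM in colon tissue and 299.6 to 373 CPM in jejunum tissue, and 5 of these 13 genes were at 0 in both colon organoid libraries. Keratins and other genes of squamous epithelium, 9 in all, summed to 295 to 447 CPM in colon organoids and to 5.46 to 11.2 CPM over the other 3 groups, with 5 of the 9 at 0 in colon organoids. The part of these cell types in the differences below was not tested. In such bulk samples, fewer cells of a type and less RNA per cell cannot be told apart.

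Colon and jejunum differed for many genes in both settings, and the 2 sets of differences resembled each other only in part. In organoids 6277 genes (45.8% of those tested) were called, 2813 (20.5%) of them higher in colon and 3464 (25.3%) higher in jejunum. In tissue 4296 genes (31.3%) were called, 2314 (16.9%) higher in colon and 1982 (14.5%) higher in jejunum. The interaction was called for 5045 genes (36.8%), with 1968 (14.4%) moved towards the colon in organoids and 3077 (22.4%) towards the jejunum. Across genes, which are not independent of each other, the organoid and the tissue difference had a Pearson correlation of 0.213 and a Spearman correlation of 0.131. The median gene had an interaction of -0.54 on the log2 scale, and of -0.30 over the 10972 genes with a count in every group, and changes near this size are to be read against it. With DESeq2's size factors the median was -0.34, with 2280 genes called towards the colon and 2713 towards the jejunum. With a spread per group the split was 796 and 782.

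Of the 3789 genes with a called tissue difference of at least 1, 30% were kept, 20.6% lost and 17.6% turned, and 31.7% met none of these definitions. There were 1138 kept genes (8.3% of the genes tested), 509 (3.71%) higher in colon and 629 (4.59%) higher in jejunum. In 875 kept genes the interaction was not called, which does not show that the differences were of equal size. It was called in 263, and the organoid difference was the larger in 210 of these. The 782 lost genes (5.71%) were 409 (2.98%) higher in colon tissue and 373 (2.72%) higher in jejunum tissue, and 743 of them still reached 10 CPM in at least 1 organoid group. In 174 of the 782 the ranges of the 2 organoid groups were apart, where 53.3% of all genes tested had them apart. The 668 turned genes (4.87%) were 463 (3.38%) higher in colon tissue and 205 (1.5%) higher in jejunum tissue. Just inside the limit of the kept class was Actn1, at 1.01 in organoids and 1.61 in tissue, and just outside it was Gskip, at -0.99 in organoids and -1.61 in tissue. The tight junction gene Cldn2 was at the limit of the lost class, with an adjusted p of 0.049 for its interaction.

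**Figure D1:**
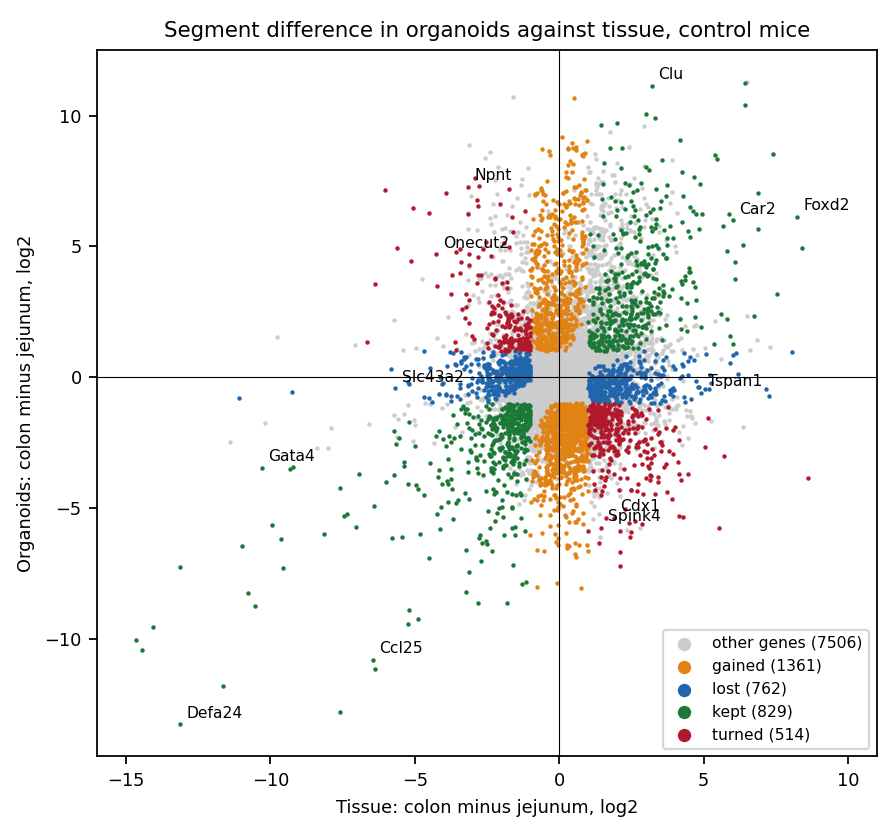
Colon minus jejunum difference in organoids (y axis, log2) against the difference in tissue (x axis, log2) for the 10972 genes with a count in each of the 4 control groups, 1 point per gene, coloured by class. Kept genes lie in the lower left and upper right, turned genes in the upper left and lower right, lost genes along the x axis and gained genes along the y axis.

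The classes leaned on single jejunum tissue libraries. Without jejunum tissue library 1, 813 kept, 548 lost and 474 turned genes had the same class. The numbers were 983, 663 and 565 without library 2 of that group, and 831, 548 and 468 without library 3. The counts leaned also on the pair of colon organoid libraries. Without either of them 6453 genes were called in tissue in place of 4296, and the remaining one was assumed to vary like the other groups. Without colon organoid library 1, 924 kept, 485 lost and 547 turned genes had the same class, and without library 2 the numbers were 967, 562 and 522. Both times the same class was found for 787 kept, 343 lost and 427 turned genes. Without colon tissue library 1 it was found for 901 kept, 625 lost and 548 turned genes. When each group was given a spread of its own (limma-voom with a spread per group), the organoid difference was called for 1092 genes (7.97%) in place of 6277. Then 309 genes were kept, 193 lost and 177 turned, and 274, 128 and 97 of the genes first placed in these classes had the same class. Among the kept genes this was 32.4% of those higher in colon and 17.3% of those higher in jejunum. With the donor number as a replicate block 411 genes were turned in place of 668. The genes chosen for naming gave 123 entries with a class, with Hoxb3 entered in duplicate. Their classes were followed in 5 settings, which included fits without colon organoid library 1, colon organoid library 2 or colon tissue library 1. None of the 5 left out a jejunum tissue library. In all 5 settings (a spread per group, the block and 3 fits without 1 library) 46 entries had the same class. Another class was found only with a spread per group for 51. For 26, both Hoxb3 entries among them, it was found in at least 1 of the other 4 settings.

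Paneth cell products were prominent among the kept genes higher in the jejunum. Of 23 Paneth genes tested, 18 were kept with the higher level in jejunum (4.59% of all genes tested were), 2 were lost (5.71%), none turned (4.87%) and none gained (12.7%). The organoid difference was called lower in colon for 20 of the 23 (25.3% of all genes tested) and the tissue difference likewise for 20 (14.5%). Defa24, an alpha-defensin (chr8:21734494-21735471, GRCm38), was at 0 and 0.873 CPM in colon organoids and 3744, 3217, 2312 and 3295 CPM in jejunum organoids. In tissue it was at 0.392, 0.293, 0.259 and 0.759 CPM in colon and 5934, 3104 and 3997 CPM in jejunum. The log2 difference was -13.27 ± 0.73 in organoids and -13.14 ± 0.48 in tissue, and the interaction of -0.13 ± 0.88 was not called (adjusted p = 0.978). Here and below, the value after ± is the size of the difference divided by the square root of its quasi-likelihood F statistic. It stands in for a standard error, which was not estimated directly. The ranges of the segments were apart in organoids and in tissue.

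Lyz1, the lysozyme of Paneth cells, had a smaller difference in organoids. It was at 93.6 and 58.5 CPM in colon organoids and 2167, 1188, 919 and 1551 CPM in jejunum organoids, against 7.59, 2.05, 8.302 and 7.21 CPM in colon tissue and 1123, 1074 and 1529 CPM in jejunum tissue. Its difference was -4.25 ± 0.52 in organoids and -7.59 ± 0.46 in tissue, with an interaction of 3.34 ± 0.55 (adjusted p = 4.27e-04). The colon organoid libraries lay above every colon tissue library, and both segments kept apart in each setting. Defa21 had no count in colon organoids and 1009.6, 1978, 1889 and 1262 CPM in jejunum organoids, at least 1870-fold higher, and its tissue difference was -12.30 ± 0.52. Alpha-defensin genes are near-identical copies, so that reads may have been divided among them, and their single values are uncertain.

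Genes for the uptake and packaging of dietary fat were mostly kept. Of 23 tested, 16 were kept with the higher level in jejunum (4.59% of all genes tested were) and 1 with the higher level in colon (3.71%). The median of the list was -5.64 in organoids, or -4.71 with genes absent from a group set to their bound, and -4.67 in tissue, against -0.24 and 0.27 over all genes tested. Apoa1, a carrier protein of chylomicrons and HDL, was at 5.18 and 7.85 CPM in colon organoids and 319, 475, 664 and 767 CPM in jejunum organoids. It was at 7.06, 12.9, 1.297 and 4.75 CPM in colon tissue and 15997, 8535 and 14786 CPM in jejunum tissue. The difference was thus smaller in organoids (-6.46 ± 0.79) than in tissue (-10.98 ± 0.66), with an interaction of 4.52 ± 0.85 and an adjusted p of 0.00111. The change was on the jejunum side, where organoid levels lay far below tissue levels.

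Mttp, which loads lipid onto apolipoprotein B, was at 14.3 and 0 CPM in colon organoids and 407, 369, 338 and 568 CPM in jejunum organoids, against 1.57, 4.97, 0.519 and 1.14 CPM in colon tissue and 1805, 1859 and 2158 CPM in jejunum tissue. Its interaction was 4.31 ± 0.92 (adjusted p = 0.00254). Npc1l1, the sterol importer of the brush border, had no count in colon organoids and 95.2, 211, 82.3 and 110.0 CPM in jejunum organoids, at least 152-fold higher. In tissue it was at 0.785, 3.51, 2.33 and 1.899 CPM in colon and 2037, 1616 and 2382 CPM in jejunum. Fabp2, the intestinal fatty acid binding protein, differed by -4.71 ± 0.77 in organoids and -3.50 ± 0.53 in tissue, with an interaction that was not called (-1.21 ± 0.82, adjusted p = 0.266). With a spread per group Mttp was kept, and Apoa1, Npc1l1 and Fabp2 were not.

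Digestive enzymes of the brush border were kept in 9 of 15 genes tested, all higher in jejunum (4.59% of all genes tested were), and 1 was lost (5.71%). Treh, which splits trehalose, had no count in colon organoids and 34.6, 21.4, 32.96 and 43.3 CPM in jejunum organoids, at least 40.3-fold higher, and was at 0, 0, 0.259 and 0 CPM in colon tissue and 277, 331 and 274 CPM in jejunum tissue. Sis, sucrase-isomaltase, was at 0.398 and 0.873 CPM in colon organoids and 964, 2421, 682 and 1311 CPM in jejunum organoids, against 0, 6.44, 12.7 and 4.75 CPM in colon tissue and 661, 347 and 404 CPM in jejunum tissue. Every jejunum organoid library held more Sis than every jejunum tissue library, and the interaction was -4.78 ± 1.78 (adjusted p = 0.0477). This call did not hold in 10 of the 13 fits without 1 library, where the adjusted p was up to 0.275, or with the replicate block (adjusted p = 0.141). Anpep, aminopeptidase N, went the other way: it was at 7.57 and 0 CPM in colon organoids and 44.6, 49.8, 67.7 and 50.5 CPM in jejunum organoids, against 5.36, 11.99, 6.49 and 11.6 CPM in colon tissue and 6790.2, 2530.0 and 7782 CPM in jejunum tissue. Its interaction was 5.82 ± 0.90 (adjusted p = 2.70e-04), with a smaller difference in organoids. None of Treh, Sis and Anpep was kept with a spread per group.

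Of 22 nutrient transporters tested, 11 were kept with the higher level in jejunum, 4 were lost and 2 gained. Of all genes tested 4.59%, 5.71% and 12.7% were, in the same order. Slc2a2, the glucose exporter GLUT2, had no count in colon organoids and 69.5, 87.1, 16.4 and 56.5 CPM in jejunum organoids, at least 69.9-fold higher, and was at 0.131, 0.878, 0 and 0 CPM in colon tissue and 289, 399 and 198 CPM in jejunum tissue. The inositol and glucose transporter Slc5a11 was at least 9.91-fold higher in jejunum organoids than in colon organoids, and differed by -9.82 ± 0.49 in tissue. Of 48 genes of xenobiotic metabolism, 16 were kept with the higher level in jejunum and 1 with the higher level in colon, while 4 were lost, 5 turned and 7 gained. In the same order, the shares over all genes tested were 4.59%, 3.71%, 5.71%, 4.87% and 12.7%. In organoids 37 of the 48 were called lower in colon (25.3% of all genes tested were) and 1 higher (20.5%). In tissue 16 were called lower in colon (14.5%) and 12 higher (16.9%). Cyp2b10, a cytochrome P450 induced through the receptor Nr1i3, had no count in colon organoids and 96.4, 137, 248 and 83.6 CPM in jejunum organoids, at least 172-fold higher. It was at 0, 0, 0 and 0.570 CPM in colon tissue and 1091, 659 and 654 CPM in jejunum tissue. The retinol-binding protein gene Rbp2 and the drug-metabolising Cyp3a11 were at least 112-fold and 58.4-fold higher in jejunum organoids, with tissue differences of -5.90 ± 0.58 and -7.02 ± 0.43. None of Slc2a2, Slc5a11, Cyp2b10, Rbp2 and Cyp3a11 was kept with a spread per group.

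The promoters of these kept genes were searched for short motifs of the factors that drive small intestinal genes. In the 250 bases before each start, taken from RefSeq on GRCm38.p6, the HNF4 words CAAAGTCCA or CAAAGGTCA on either strand were found in 16 of 575 promoters (2.78%) of genes kept with the higher level in jejunum, 452 of which had an entry. They were found in 0 of 496 promoters of genes kept with the higher level in colon, and in 0.772% of the promoters of all genes tested and 0.807% of all 32851 promoters. Promoters of turned genes held them in 6 of 181 (3.31%) where jejunum tissue was higher and in 1.57% where colon tissue was higher. The GATA word AGATAA was found in 8.52% of the promoters of kept genes higher in jejunum and 5.24% of those higher in colon, against 6.31% for the genes tested and 9.99% of all promoters. The CDX and posterior HOX word TTTATNG, which also matches the TATA-box letters CTATAAA, was found in 11.1% and 8.67% in the same order, against 6.41% for the genes tested and 9.81% of all promoters. Matches are descriptions of the letters in this window, with no test. The 5 windows below, 5' to 3' on the strand of the gene with the matches in capitals, are shown because they belong to kept genes of the jejunum and hold a match. The Treh window is chr9:44672983-44673232 (plus strand), the Rbp2 window chr9:98490287-98490536 (plus), the Cyp3a11 window chr5:145879855-145880104 (minus), the Sis window chr3:72967864-72968113 (minus) and the Fabp2 window chr3:122894822-122895071 (plus).
Treh: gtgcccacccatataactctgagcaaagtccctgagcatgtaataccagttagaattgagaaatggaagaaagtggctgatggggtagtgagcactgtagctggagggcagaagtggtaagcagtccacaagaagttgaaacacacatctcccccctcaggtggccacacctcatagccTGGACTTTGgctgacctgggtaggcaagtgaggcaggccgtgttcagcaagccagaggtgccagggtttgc
Rbp2: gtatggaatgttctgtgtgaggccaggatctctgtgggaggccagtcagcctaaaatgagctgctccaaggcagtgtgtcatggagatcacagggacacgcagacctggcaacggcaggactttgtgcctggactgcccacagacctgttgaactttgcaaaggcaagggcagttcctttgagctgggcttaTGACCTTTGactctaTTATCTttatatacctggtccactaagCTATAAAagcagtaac
Cyp3a11: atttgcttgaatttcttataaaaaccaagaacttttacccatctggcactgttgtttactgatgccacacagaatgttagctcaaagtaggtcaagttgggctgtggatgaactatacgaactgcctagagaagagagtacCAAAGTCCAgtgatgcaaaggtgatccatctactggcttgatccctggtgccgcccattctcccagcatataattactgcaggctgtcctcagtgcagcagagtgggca
Sis: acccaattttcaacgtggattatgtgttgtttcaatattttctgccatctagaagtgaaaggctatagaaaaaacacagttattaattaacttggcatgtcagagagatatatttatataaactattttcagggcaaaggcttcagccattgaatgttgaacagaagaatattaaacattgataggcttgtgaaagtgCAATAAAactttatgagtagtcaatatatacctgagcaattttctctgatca
Fabp2: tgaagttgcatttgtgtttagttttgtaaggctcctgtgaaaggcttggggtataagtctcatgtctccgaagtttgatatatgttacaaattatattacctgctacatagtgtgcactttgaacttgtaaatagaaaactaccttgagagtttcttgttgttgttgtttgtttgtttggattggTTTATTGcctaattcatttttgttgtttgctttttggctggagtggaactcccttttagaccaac
The HNF4 word began 71 bases before the start in Treh, 58 in Rbp2 and 109 in Cyp3a11. Rbp2 also held a GATA word at 43 bases and CTATAAA at 16 bases. In Sis the CDX word began 52 bases before the start, and in Fabp2 65 bases.

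The transcription factors of the small intestine were split among the classes. Of 30 factors of segment and enterocyte identity tested, 5 were kept with the higher level in jejunum and 2 with the higher level in colon, 3 were lost, 4 turned and 2 gained. Shares over all genes tested were 4.59%, 3.71%, 5.71%, 4.87% and 12.7% in the same order. Gata4 (chr14:63198922-63271692) was at 6.37 and 16.6 CPM in colon organoids and 134, 99.04, 98.4 and 141 CPM in jejunum organoids, against 0, 0.585, 0 and 0 CPM in colon tissue and 183, 141 and 199.7 CPM in jejunum tissue. Its difference was -3.46 ± 0.52 in organoids and -10.31 ± 0.60 in tissue. The interaction of 6.85 ± 0.82 (adjusted p = 4.41e-05) was on the colon side, where both organoid libraries had counts and 3 of 4 tissue libraries had none. Gata5 had no count in colon organoids and 21.4, 33.5, 27.4 and 28.00 CPM in jejunum organoids, and its tissue difference was -6.98 ± 0.44. With a spread per group Gata5 was kept, and Gata4 was not.

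Hnf4g, an activator of enterocyte genes, differed by -4.27 ± 0.48 in organoids and -3.73 ± 0.33 in tissue, and its interaction was not called (-0.54 ± 0.53, adjusted p = 0.454). Creb3l3, a membrane-bound activator of lipid genes, was at least 200-fold higher in jejunum organoids, and the xenobiotic receptor Nr1i3 at least 27.1-fold. With a spread per group Nr1i3 was kept, and Hnf4g and Creb3l3 were not. Gata6, which is expressed along the whole intestine, showed a called but smaller difference in both settings, -1.31 ± 0.25 in organoids and -0.87 ± 0.21 in tissue, and fell in no class because the tissue value was under 1.

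A chemokine, a gut hormone and a claudin were also kept with the higher level in jejunum. Ccl25, a chemokine of the small intestinal epithelium that attracts gut-homing lymphocytes, was at 0.398 and 0 CPM in colon organoids and 523, 558, 461 and 666 CPM in jejunum organoids, against 2.62, 9.65, 10.4 and 9.68 CPM in colon tissue and 713, 579 and 791 CPM in jejunum tissue. The difference was larger in organoids (-10.81 ± 0.80) than in tissue (-6.45 ± 0.40), with an interaction of -4.36 ± 1.03 and an adjusted p of 0.00484. Gip, the hormone of K cells, had no count in colon organoids and 196, 115, 85.4 and 147 CPM in jejunum organoids, at least 166-fold higher, and differed by -8.45 ± 0.60 in tissue. The paracellular sodium channel Cldn15 differed by -8.23 ± 0.49 in organoids and -3.23 ± 0.26 in tissue. Its levels were 1.195 and 4.36 CPM in colon organoids, 773, 844, 574 and 677 CPM in jejunum organoids, 386, 299, 398 and 416 CPM in colon tissue and 4244, 3110.5 and 3215 CPM in jejunum tissue, so that the colon organoid libraries were the ones far below the rest.

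Genes kept with the higher level in colon included Hoxb9 (chr11:96271457-96276595), a posterior Hox gene. It was at 221 and 74.2 CPM in colon organoids and had no count in the 4 jejunum organoid libraries, at least 893-fold higher. In colon tissue it was at 41.7, 46.5, 43.1 and 55.2 CPM, and it had no count in jejunum tissue, at least 42.1-fold higher. Foxd2, a forkhead factor (chr4:114906282-114908873), was at 43.4 and 119.6 CPM in colon organoids and 0.962, 1.46, 0.897 and 1.14 CPM in jejunum organoids, against 90.9, 121, 121 and 150.0 CPM in colon tissue and 0, 0 and 0.912 CPM in jejunum tissue. Its difference was 6.14 ± 0.45 in organoids and 8.23 ± 0.68 in tissue, with an interaction of -2.09 ± 1.17 that was not called (adjusted p = 0.176). Every colon library exceeded every jejunum library for both genes, and both had the same class in all 5 settings.

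Several products of the colon surface epithelium were also kept. Slc6a14, an amino acid importer, was at 62.1 and 47.1 CPM in colon organoids and 0, 0.243, 0.224 and 0 CPM in jejunum organoids, against 198, 1047, 862 and 627 CPM in colon tissue and 0.982, 15.1 and 0 CPM in jejunum tissue. Carbonic anhydrase 2, Car2, was at 317 and 47.1 CPM in colon organoids and 6.16, 1.94, 0.897 and 2.05 CPM in jejunum organoids, against 532, 900.0, 945 and 1096 CPM in colon tissue and 12.8, 30.2 and 1.82 CPM in jejunum tissue. The Car2 difference was 6.00 ± 0.78 in organoids and 6.01 ± 0.85 in tissue. The related Car1 reached 739.8 and 771 CPM in colon organoids and 0, 0.485, 0.224 and 0.455 CPM in jejunum organoids. In tissue it varied widely within the groups, at 689, 28607, 17120.5 and 22765 CPM in colon and 12.8, 596 and 9.12 CPM in jejunum, and it was not kept when each group had a spread of its own. Fut2, a fucosyltransferase that makes surface fucose, differed by 5.78 ± 0.61 in organoids and 5.68 ± 0.67 in tissue, and Gcnt1, a glycosyltransferase of O-glycans, by 6.22 ± 0.89 and 4.74 ± 1.13.

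Of 30 markers of colonocytes and of salt and water transport, 10 were kept with the higher level in colon and 1 with the higher level in jejunum, 2 were lost and 6 turned. The shares over all genes tested were 3.71%, 4.59%, 5.71% and 4.87% in the same order. In organoids 12 of the 30 were called higher in colon (20.5% of all genes tested were) and 8 lower (25.3%). The list's median was 0.07 in organoids (0.17 with absent genes at their bound) and 2.05 in tissue. Wfdc2, a secreted protease inhibitor, was at 745 and 401 CPM in colon organoids and 0.385, 0.728, 0 and 0.455 CPM in jejunum organoids, against 524, 149, 119 and 108 CPM in colon tissue and 6.88, 0 and 0 CPM in jejunum tissue. Pamr1, a gene of a peptidase-like secreted protein, was at 66.1 and 47.1 CPM in colon organoids and 0, 0.243, 0 and 0 CPM in jejunum organoids, and at 55.7, 16.1, 12.2 and 12.5 CPM in colon tissue with no count in jejunum tissue. For both genes colon tissue library 1 was far above the other 3 colon tissue libraries. The uncharacterised gene 9130206I24Rik differed by 6.24 ± 0.73 in organoids and 5.88 ± 0.80 in tissue.

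Some genes of crypt cells were kept with the higher level in colon, while other members of their lists were lower in colon organoids. Of 22 genes of crypt stem cells and Wnt targets tested, 2 were kept with the higher level in colon (3.71% of all genes tested were) and 1 with the higher level in jejunum (4.59%). In the same list 1 was lost (5.71% of all genes tested were) and 3 were gained with the higher level in jejunum organoids (7.84%). In organoids 5 of the 22 were called higher in colon and 6 lower, near the shares over all genes tested (20.5% and 25.3%). The list median was -0.83 in organoids and 0.62 in tissue. Of 13 tuft cell genes tested, 1 was kept (8.3% of all genes tested were). In colon organoids 5 of the 13 were called higher (20.5% of all genes tested) and 4 lower (25.3%). Sox9, a transcription factor of crypt progenitors, was at 827 and 481 CPM in colon organoids and 150.5, 167, 212 and 166 CPM in jejunum organoids, against 271, 168, 164 and 176 CPM in colon tissue and 94.3, 65.4 and 52.9 CPM in jejunum tissue. It differed by 1.91 ± 0.29 in organoids and 1.46 ± 0.29 in tissue. The Wnt target Cd44 differed by 3.78 ± 0.35 in organoids and 1.94 ± 0.35 in tissue, with an interaction of 1.83 ± 0.48 and an adjusted p of 0.00897. Dclk1, a tuft cell kinase, differed by 3.94 ± 0.38 in organoids and 2.52 ± 0.41 in tissue, and the membrane protein gene Prom1 by 1.98 ± 0.33 and 3.70 ± 0.36. Prom1 was not kept with a spread per group. Lgr5, the stem cell receptor, showed no called difference, at -0.39 ± 0.62 in organoids (adjusted p = 0.649) and 0.23 ± 0.58 in tissue (adjusted p = 0.797).

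**Figure D2:**
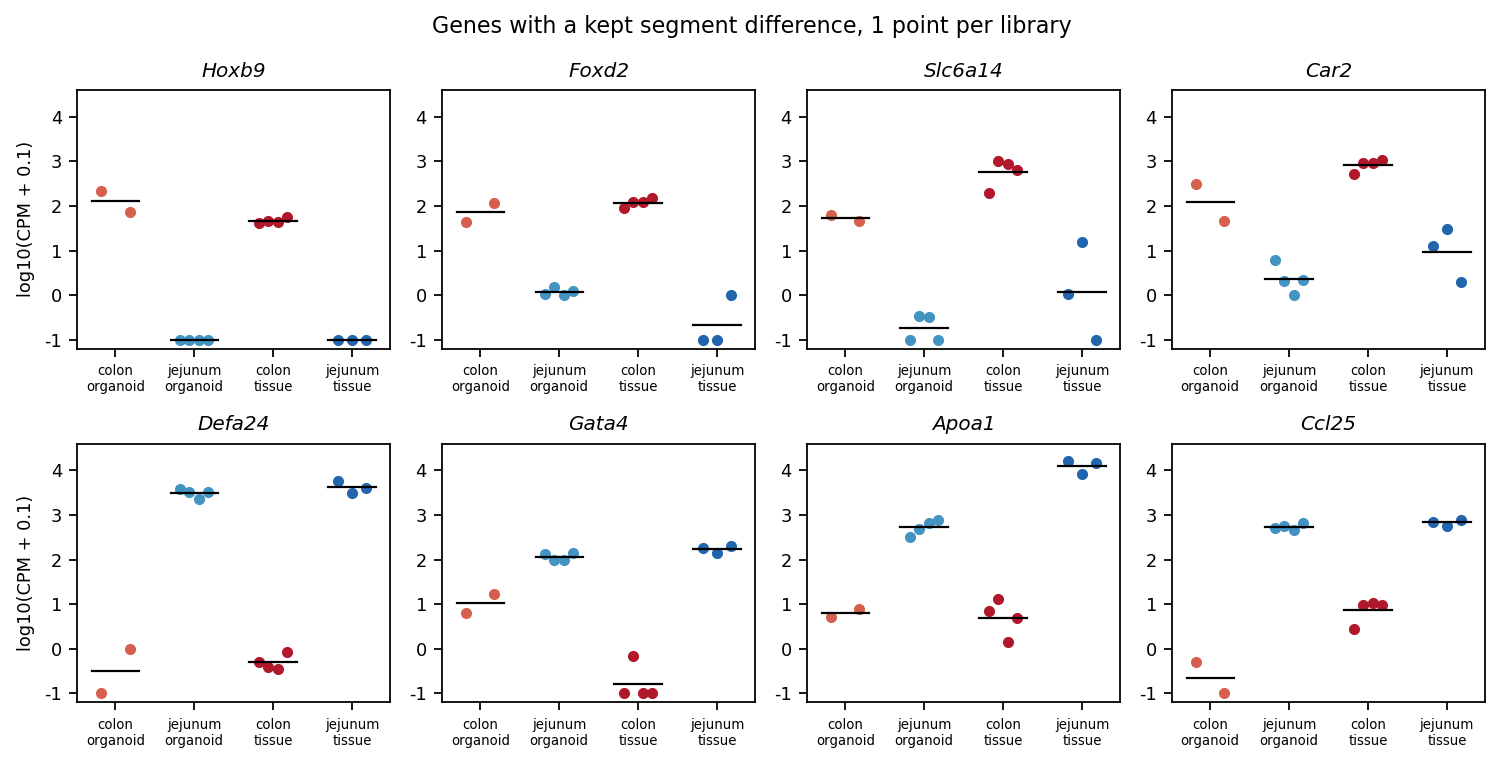
Levels of 8 genes with a kept segment difference, as log10(CPM + 0.1), with 1 point per control library and a line at the mean of the logs. The upper 4 genes are higher in colon organoids and colon tissue, and the lower 4 are higher in jejunum organoids and jejunum tissue. Genes at -1 had no count.

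The Hox genes were mostly higher in colon organoids. Of 28 tested, 18 were called higher in colon organoids and 1 lower, where 20.5% and 25.3% of all genes tested were. In tissue 9 were called higher in colon and 2 lower, where 16.9% and 14.5% of all genes tested were. Of the 28, 6 were kept (8.3% of all genes tested were), 3 turned (4.87%) and 2 gained (12.7%), and the remaining 17 met none of these definitions. The summed level of 39 Hox genes was 385 to 596 CPM in colon organoids and 9.81 to 20.6 CPM in jejunum organoids. In tissue, where muscle and connective tissue also express Hox genes, it was 746 to 827 CPM in colon and 270.2 to 459.6 CPM in jejunum. The ranges of the segments were apart in organoids and in tissue.

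The kept Hox genes were Hoxb9, Hoxb7, Hoxb3, Hoxa10, Hoxa11 and Hoxd9, and the last 3 of these had few counts in colon organoids. Hoxb7 was at 28.3 and 34.9 CPM in colon organoids and 0, 0.971, 1.12 and 0.455 CPM in jejunum organoids, against 3.14, 43.00, 59.1 and 51.1 CPM in colon tissue and 0.982, 13.4 and 0.912 CPM in jejunum tissue. Hoxb3 was at 35.9 and 3.49 CPM in colon organoids and 0.577, 1.699, 0 and 0.683 CPM in jejunum organoids, against 13.3, 52.7, 66.7 and 67.97 CPM in colon tissue and 6.88, 13.4 and 7.295 CPM in jejunum tissue. Hoxa10 was at 0 and 12.2 CPM in colon organoids, so that 1 library carried its organoid call, and Hoxa11 at 6.77 and 0 CPM and Hoxd9 at 1.195 and 0 CPM likewise. Hoxa10, Hoxa11 and Hoxd9 were at 0 in every jejunum library. Hoxc8 turned: it was at 7.57 and 15.7 CPM in colon organoids and 0 in the 4 jejunum organoid libraries, against 0, 1.17, 3.63 and 1.899 CPM in colon tissue and 47.2, 31.9 and 151 CPM in jejunum tissue. Hoxc6 did the same, with 11.95 and 0 CPM in colon organoids, 0.577, 0, 0.224 and 0 CPM in jejunum organoids, 0, 2.93, 7.52 and 6.27 CPM in colon tissue and 24.6, 33.6 and 50.2 CPM in jejunum tissue. Hoxa3 turned in the other direction, with no count in colon organoids and 6.16, 4.61, 7.62 and 6.83 CPM in jejunum organoids, against 35.97, 13.2, 17.6 and 14.8 CPM in colon tissue and 0, 3.36 and 0 CPM in jejunum tissue. None of Hoxb7, Hoxb3, Hoxa10, Hoxa11, Hoxd9, Hoxc6, Hoxc8 and Hoxa3 had the same class in all 5 settings. The distal gene Hoxb13 met no class: it was at 0 and 27.1 CPM in colon organoids, and its levels in colon tissue came from library 1.

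Genes linked to fetal-like and regenerating epithelium were higher in colon organoids almost throughout. Of 23 tested, 22 were called higher in colon organoids, where 20.5% of all genes tested were. In tissue 9 were called higher in colon (16.9% of all genes tested were) and 3 lower (14.5%). They were 9 kept (8.3% of all genes tested were), 3 turned (4.87%) and 3 gained (12.7%). The interaction was called towards the colon in 15 of the 23 (14.4% of all genes tested). The list's median was 4.86 in organoids and 1.55 in tissue, or 0.90 with absent genes at their bound. Summed, the list was at 24690 to 29990 CPM in colon organoids and 1398 to 1835 CPM in jejunum organoids, against 3864 to 4401 CPM in colon tissue and 2973 to 4962 CPM in jejunum tissue. The colon organoids lay above all other groups, and the tissue groups overlapped.

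Clu, the secreted chaperone clusterin, was at 3057 and 4137 CPM in colon organoids and 1.15, 3.16, 1.79 and 0.228 CPM in jejunum organoids, against 72.5, 13.7, 34.5 and 25.1 CPM in colon tissue and 0.982, 1.68 and 8.21 CPM in jejunum tissue. Its interaction was 7.94 ± 1.34 (adjusted p = 5.11e-04), and it was also called with a spread per group, but not without jejunum tissue library 3 (6.18, adjusted p = 0.0913). Ly6a, the Sca-1 antigen, was at 2264 and 898 CPM in colon organoids and 4.43, 13.6, 1.79 and 4.55 CPM in jejunum organoids, against 175, 414, 126 and 88.9 CPM in colon tissue and 22.6, 6.71 and 41.04 CPM in jejunum tissue. Ly6a was not kept with a spread per group. Anxa1, a lipid-binding annexin of repairing epithelium, differed by 7.91 ± 0.64 in organoids and 3.11 ± 0.64 in tissue, and Il1rn, the interleukin-1 receptor antagonist, by 5.32 ± 0.54 and 3.74 ± 0.87.

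Among the lost genes that were higher in jejunum tissue, Slc43a2 had the same class in all 5 settings. This amino acid transporter (chr11:75531694-75577575) was at 20.3 and 13.1 CPM in colon organoids and 16.7, 32.5, 23.5 and 19.6 CPM in jejunum organoids. It was at 19.8, 12.9, 21.8 and 12.7 CPM in colon tissue and 783, 867 and 928 CPM in jejunum tissue. The difference was -0.43 ± 0.33 in organoids (adjusted p = 0.322) and -5.67 ± 0.30 in tissue, with an interaction of 5.24 ± 0.42 (adjusted p = 4.50e-06). All organoid libraries lay at the level of colon tissue, and the jejunum tissue libraries were the high ones.

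Tap1, which carries peptides to MHC class I, was at 20.7 and 41.9 CPM in colon organoids and 14.2, 16.99, 14.3 and 17.5 CPM in jejunum organoids, against 41.5, 50.3, 45.1 and 34.6 CPM in colon tissue and 474, 255 and 1013 CPM in jejunum tissue. Tap1 was not lost without colon organoid library 1, without colon tissue library 1 or with the block. Slc46a1, the proton-coupled folate transporter, differed by 0.50 ± 0.54 in organoids and -3.06 ± 0.48 in tissue, and the transcription factors Maf and Tbx3 by 0.43 ± 0.58 and -0.07 ± 0.51 in organoids and by -3.89 ± 0.52 and -2.46 ± 0.44 in tissue. The mRNA decay factor Zfp36 differed by 0.48 ± 0.47 in organoids and -3.58 ± 0.43 in tissue, with 943, 229.8 and 786 CPM in the jejunum tissue libraries. For these 4 genes the interaction was not called with a spread per group, and Tbx3 was not lost without colon organoid library 1.

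Some losses rested on 1 colon organoid library. Slc6a19, the neutral amino acid transporter of the brush border, was at 0 and 21.8 CPM in colon organoids and 14.05, 6.07, 21.5 and 17.3 CPM in jejunum organoids, against 0, 0.293, 0 and 0 CPM in colon tissue and 63.9, 15.1 and 77.5 CPM in jejunum tissue. The colon organoid libraries were on either side of the jejunum organoids, so that no organoid difference could be called. Mreg was at 0 and 51.5 CPM, Fam84a at 48.6 and 0 CPM and the glycerol kinase gene Gyk at 67.3 and 3.49 CPM in colon organoids, likewise with 1 high and 1 low library. None of these 4 was lost in both fits that left out 1 of the colon organoid libraries.

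Among lost genes higher in colon tissue, Vdac3, a channel of the outer mitochondrial membrane, was at 61.3 and 30.5 CPM in colon organoids and 82.4, 77.2, 81.4 and 90.4 CPM in jejunum organoids, against 74.2, 181, 187 and 185 CPM in colon tissue and 5.89, 6.71 and 7.295 CPM in jejunum tissue. The difference was -0.83 ± 0.37 in organoids and 4.55 ± 0.43 in tissue, with an interaction of -5.38 ± 0.58 (adjusted p = 2.12e-05). The tetraspanin Tspan1 was at 69.3 and 158 CPM in colon organoids and 145, 184, 227 and 123 CPM in jejunum organoids, against 1030.0, 2160.5, 1746 and 1829 CPM in colon tissue and 54.03, 104 and 15.5 CPM in jejunum tissue. The low level in jejunum tissue was not seen in jejunum organoids. Vdac3 was not lost without colon organoid library 1 or without colon tissue library 1, and Tspan1 was not lost without library 2.

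Foxa1, a forkhead factor of the gut endoderm, was at 72.9 and 32.3 CPM in colon organoids and 46.2, 62.4, 77.6 and 42.3 CPM in jejunum organoids, against 70.1, 119, 77.05 and 93.03 CPM in colon tissue and 14.7, 3.36 and 10.03 CPM in jejunum tissue. Gcnt3, a mucin-type glycosyltransferase, differed by -0.13 ± 0.52 in organoids and 4.74 ± 0.59 in tissue. The glucose transporter Slc2a1 differed by 0.08 ± 0.41 and 3.52 ± 0.46, the simple epithelial keratin Krt8 by 0.08 ± 0.34 and 1.83 ± 0.32, and Cpt1a, the gatekeeper of mitochondrial fatty acid oxidation, by -0.59 ± 0.49 and 2.66 ± 0.48. Slc40a1, the iron exporter ferroportin, was at 8.37 and 17.5 CPM in colon organoids and 17.1, 47.3, 10.8 and 5.69 CPM in jejunum organoids, against 28.9, 322, 204 and 142 CPM in colon tissue and 1.96, 0 and 0.912 CPM in jejunum tissue. Gcg, the glucagon-like peptide gene of L cells, was at 54.6 and 362 CPM in colon organoids and 128, 266, 124 and 141 CPM in jejunum organoids, against 154, 60.3, 44.9 and 60.2 CPM in colon tissue and 4.91, 8.39 and 2.74 CPM in jejunum tissue, so that jejunum organoids held more Gcg than jejunum tissue. None of these 7 interactions was called with a spread per group. Gcg was not lost without either of the colon organoid libraries, and Slc40a1 and Cpt1a were not lost without library 2.

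The turned genes included secretory cell products that were lower in colon organoids and higher in colon tissue. Of 18 goblet and deep crypt secretory genes tested, none was kept (8.3% of all genes tested were), 1 was lost (5.71%), 6 turned (4.87%) and 2 were gained (12.7%). In organoids 8 of the 18 were called lower in colon (25.3% of all genes tested were), and in tissue 10 were called higher (16.9%) and 1 lower (14.5%). The list's median was -0.87 in organoids and 1.41 in tissue. Summed, the list was at 329 to 1776 CPM in colon organoids and 5937 to 8228 CPM in jejunum organoids, against 18510 to 23360 CPM in colon tissue and 10150 to 14780 CPM in jejunum tissue. Muc2, the gel-forming mucin, met no class with both colon organoid libraries in the fit, was kept without the first and turned without the second. It was at 43.02 and 473 CPM in colon organoids, 55.2, 151, 147 and 176 CPM in jejunum organoids, 16791, 10104, 9442 and 9741 CPM in colon tissue and 2089.5, 1564 and 1340.5 CPM in jejunum tissue.

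Klk1, tissue kallikrein (chr7:44225360-44229618), had no count in colon organoids and 104, 116, 73.3 and 84.9 CPM in jejunum organoids, at least 115-fold lower in colon. In tissue it was at 779, 713, 586 and 682 CPM in colon and 0, 13.4 and 7.295 CPM in jejunum, a difference of 6.80 ± 0.57, and the interaction had an adjusted p of 3.42e-06. Spink4, a peptide of goblet cells, was at 31.1 and 37.5 CPM in colon organoids and 1786, 2106, 1351 and 2103 CPM in jejunum organoids, against 1454, 933, 401 and 1141 CPM in colon tissue and 386, 359 and 336 CPM in jejunum tissue. It differed by -5.75 ± 0.52 in organoids and 1.45 ± 0.34 in tissue, with an interaction of -7.20 ± 0.61 (adjusted p = 4.78e-06). The group ranges of both genes were apart in organoids and in tissue, in opposite order.

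Agr2, a disulfide isomerase needed for mucin folding, was at 7.17 and 14.8 CPM in colon organoids and 286, 468, 382 and 249 CPM in jejunum organoids, against 1197, 1158, 638 and 1059 CPM in colon tissue and 301, 179.5 and 150.5 CPM in jejunum tissue. Its interaction was -7.32 ± 0.61 (adjusted p = 4.78e-06). Ern2, the stress sensor of goblet cells, had no count in colon organoids and 14.8, 20.1, 21.7 and 15.9 CPM in jejunum organoids, and differed by 2.05 ± 0.37 in tissue. Ccl28, a mucosal chemokine, had no count in colon organoids and 22.1, 25.5, 21.5 and 25.5 CPM in jejunum organoids, against 23.8, 23.7, 20.2 and 20.7 CPM in colon tissue and 0.982, 6.71 and 3.65 CPM in jejunum tissue. Among enteroendocrine genes 3 of 23 tested turned, all higher in colon tissue (3.38% of all genes tested were). In organoids 9 of the 23 were called lower in colon and 5 higher, where 25.3% and 20.5% of all genes tested were. Summed, this list was at 282.4 to 2883 CPM in colon organoids and 609.6 to 1144 CPM in jejunum organoids, with overlapping ranges. Cpe was gained, at 51.4 and 243 CPM in colon organoids and 14.6 to 30.3 CPM in jejunum organoids. Sst, somatostatin, had no count in colon organoids and 49.6, 46.8, 21.1 and 58.1 CPM in jejunum organoids, and differed by 2.09 ± 0.51 in tissue. Tac1, the precursor of substance P, and Chgb, a granule protein, differed by -2.93 ± 0.71 and -2.59 ± 0.80 in organoids and by 3.95 ± 0.65 and 3.56 ± 0.76 in tissue. Chgb was at 3.59 and 86.4 CPM in the colon organoid libraries. With a spread per group Ccl28 was turned, and Agr2, Ern2, Sst, Tac1 and Chgb were not.

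The 2 caudal factors turned as well. Cdx1 was at 3.98 and 11.3 CPM in colon organoids and 259, 281, 354 and 278 CPM in jejunum organoids, against 255, 402, 346 and 378 CPM in colon tissue and 104, 101 and 76.6 CPM in jejunum tissue. The difference was -5.39 ± 0.42 in organoids and 1.88 ± 0.28 in tissue, with an interaction of -7.27 ± 0.50 (adjusted p = 3.42e-06). The colon organoid libraries stood far below the other 3 groups. Cdx2 (chr5:147300805-147307270), which sets intestinal identity, was at 67.7 and 73.3 CPM in colon organoids and 279.6, 271, 205 and 245 CPM in jejunum organoids, against 70.4, 125, 118 and 191 CPM in colon tissue and 51.1, 60.4 and 36.5 CPM in jejunum tissue. Its interaction was -3.20 ± 0.47 (adjusted p = 1.97e-04), and it was not turned with a spread per group.

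Salt transport and metabolic genes were also among those higher in colon tissue and lower in colon organoids. Slc12a2, the sodium, potassium and chloride importer of crypt cells, was at 315 and 229.5 CPM in colon organoids and 691, 583, 749 and 602 CPM in jejunum organoids, against 619, 569.8, 544 and 707 CPM in colon tissue and 184, 199.6 and 193 CPM in jejunum tissue. Its interaction was -2.93 ± 0.31 (adjusted p = 1.61e-05). Hsd11b2, which protects the aldosterone receptor from glucocorticoids, had no count in colon organoids and 17.5, 20.4, 19.5 and 9.11 CPM in jejunum organoids, against 178, 225, 204 and 315 CPM in colon tissue and 9.82, 5.03 and 0 CPM in jejunum tissue. Kcnn4, a calcium-activated potassium channel, differed by -2.81 ± 0.62 in organoids and 1.99 ± 0.58 in tissue. The sulfotransferase Sult1c2, the acyl-CoA thioesterase Acot1, the retinol saturase Retsat, the disulfide isomerase Pdia5, the adrenergic receptor Adra2a and the predicted gene Gm1123 also turned. Of these, Acot1, Retsat, Pdia5, Adra2a and Gm1123 had no count in colon organoids and were at least 78, 106, 33.3, 20.1 and 148 times as high in jejunum organoids. Sult1c2 had no count in jejunum tissue and was at least 54.4-fold higher in colon tissue, and it differed by -7.30 ± 1.12 in organoids. In the cell cycle list 4 of 30 genes tested turned with the higher level in colon tissue, where 3.38% of all genes tested did, among them the replication clamp Pcna at -2.54 ± 0.41 in organoids and 2.08 ± 0.38 in tissue and the checkpoint kinase Bub1 at -3.11 ± 0.74 and 3.19 ± 0.82. With a spread per group, none of the genes named in this paragraph was turned except Gm1123.

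Genes that were higher in colon organoids and lower in colon tissue were fewer, at 205 (1.5% of the genes tested). Npnt, a basement membrane protein (chr3:132881745-132950291), was at 139 and 119 CPM in colon organoids and 1.92, 0, 0.897 and 0.228 CPM in jejunum organoids, against 2.88, 3.51, 4.67 and 2.09 CPM in colon tissue and 34.4, 20.1 and 32.8 CPM in jejunum tissue. It differed by 7.27 ± 0.64 in organoids and -3.17 ± 0.54 in tissue, with an interaction of 10.44 ± 0.84 (adjusted p = 4.50e-06). Slfn2, a gene of the schlafen family, was at 20.3 and 15.7 CPM in colon organoids and 0, 0, 0 and 0.228 CPM in jejunum organoids, against 5.23, 2.05, 5.19 and 5.696 CPM in colon tissue and 27.5, 33.6 and 43.8 CPM in jejunum tissue. The ranges of both genes were apart in organoids and in tissue, again in opposite order.

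Ms4a6b and Hcls1, which are known from blood cells, were at 27.9 and 46.3 CPM and 15.5 and 27.1 CPM in colon organoids and had no count in the 4 jejunum organoid libraries. In tissue Ms4a6b was at 5.76, 3.22, 5.71 and 2.09 CPM in colon and 28.5, 16.8 and 19.1 CPM in jejunum. Neither was turned with the donor number as a block, and Hcls1 was not turned without colon tissue library 1. The summed macrophage and dendritic cell genes, given above, were also higher in colon organoids than in jejunum organoids, and their part in these values was not tested. Kcnj13, a potassium channel, was at 1.195 and 21.8 CPM in colon organoids with no count in jejunum organoids, against 0.262, 0.585, 0.259 and 0.380 CPM in colon tissue and 22.6, 1.68 and 16.4 CPM in jejunum tissue. Aldh1a3, an enzyme of retinoic acid synthesis, differed by 6.77 ± 0.84 in organoids and -2.83 ± 0.55 in tissue.

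Onecut2, a factor of the proximal small intestine, was at 840.1 and 1176 CPM in colon organoids and 86.01, 12.9, 18.4 and 37.6 CPM in jejunum organoids, against 1.18, 0.878, 0.259 and 0.380 CPM in colon tissue and 2.95, 26.8 and 16.4 CPM in jejunum tissue. The colon organoids thus held more Onecut2 than any other library, and the interaction was 8.95 ± 1.08 (adjusted p = 4.65e-05). Anxa2, an annexin of the fetal-like list, differed by 1.81 ± 0.32 in organoids and -2.18 ± 0.30 in tissue. The ERK phosphatase Dusp6 differed by 3.18 ± 0.50 and -3.23 ± 0.47. None of Onecut2, Anxa2 and Dusp6 was turned with a spread per group.

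**Figure D3:**
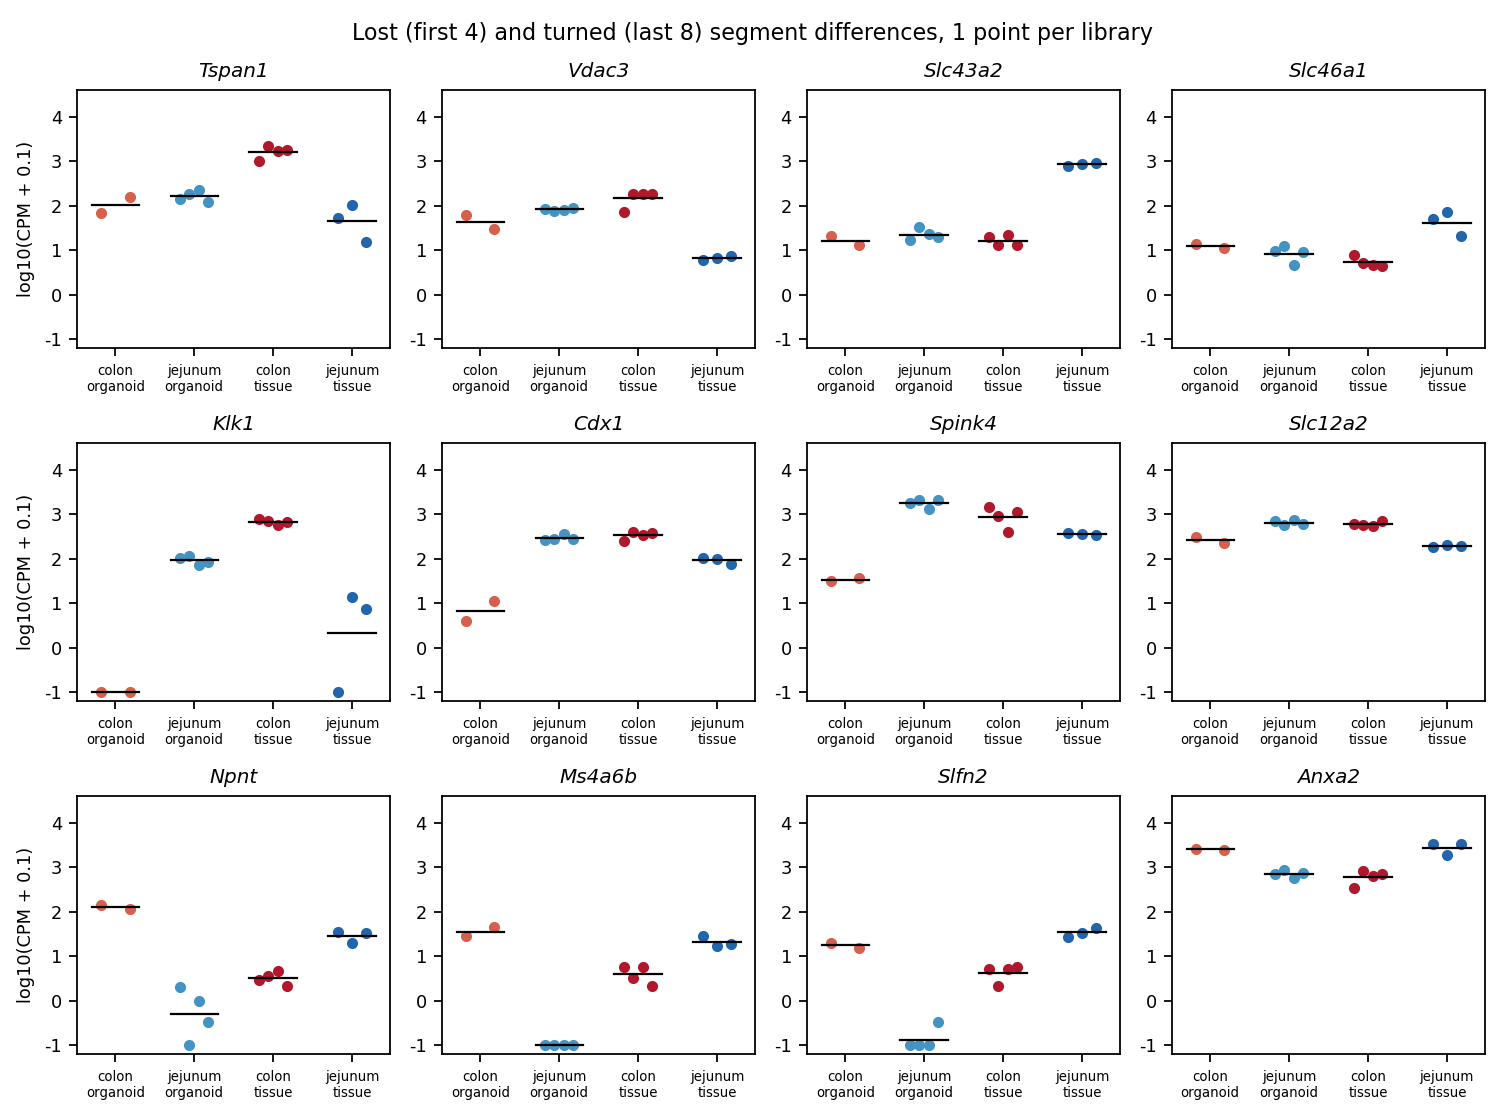
Levels of 4 genes with a lost segment difference (top row) and 8 with a turned one (middle row, higher in colon tissue; bottom row, higher in jejunum tissue), as log10(CPM + 0.1), with 1 point per control library and a line at the mean of the logs. In the top row the 2 organoid groups differ less than the tissue groups, although the organoid ranges of Vdac3 do not overlap. In the lower rows the order of colon and jejunum differs between organoids and tissue.

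Gained differences were the most numerous, at 1742 genes (12.7% of those tested), 667 (4.87%) higher in colon organoids and 1075 (7.84%) higher in jejunum organoids. Bicc1, an RNA-binding protein, was at 143 and 208 CPM in colon organoids with no count in jejunum organoids, at least 1060-fold higher, and was at 22.2, 7.61, 9.86 and 15.2 CPM in colon tissue and 6.88, 23.5 and 14.6 CPM in jejunum tissue. Cp, the copper carrier ceruloplasmin, was at 96.8 and 202 CPM in colon organoids and 0, 0, 0.224 and 0 CPM in jejunum organoids, with a tissue difference of 0.51 ± 0.54. The keratin Krt7 differed by 3.04 ± 0.39 in organoids and 0.27 ± 0.36 in tissue and the stress-response gene Ier3 by 4.49 ± 0.41 and 0.33 ± 0.42. Ankrd1, a known target of the Hippo pathway, was at 134 and 357 CPM in colon organoids and at most 2.74 CPM in any library of the other groups.

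In the other direction, Hnf4a, the main HNF4 factor of the intestine, was at 39.8 and 69.8 CPM in colon organoids and 461, 504, 460.0 and 402 CPM in jejunum organoids, against 139, 341, 253 and 259 CPM in colon tissue and 134, 163 and 160.5 CPM in jejunum tissue. Its interaction was -3.78 ± 0.45 (adjusted p = 4.34e-05). Hnf4a was not gained without either of the colon organoid libraries. Pigr, the receptor that carries IgA across the epithelium, was at 9.56 and 69.8 CPM in colon organoids and 859.5, 903, 871 and 866 CPM in jejunum organoids, against 1806, 1541, 1261 and 1448 CPM in colon tissue and 1261, 2663 and 1255 CPM in jejunum tissue. Ldha, lactate dehydrogenase, differed by -3.02 ± 0.33 in organoids and -0.06 ± 0.25 in tissue, and the chromatin protein Hmgb2 by -3.74 ± 0.50 and 0.56 ± 0.37. The goblet cell genes Tff3 and Fcgbp differed by -4.35 ± 0.74 and -5.28 ± 0.62 in organoids and by -0.54 ± 0.51 and 0.21 ± 0.39 in tissue, and neither class held with a spread per group. Smoc2, a gene of crypt base stem cells, differed by -6.30 ± 1.04 in organoids and -0.12 ± 0.62 in tissue. Mrps22, Rgcc and Slco2b1 had no count in colon organoids and were at least 98.8, 107 and 74 times as high in jejunum organoids. Smoc2 and Slco2b1 were not gained with a spread per group.

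The cell cycle list held 1 kept gene of 30 tested, against 8.3% kept, 5.71% lost, 4.87% turned and 12.7% gained over all genes tested. Fatty acid oxidation held 9 gained genes of 21 tested, with 1 kept, 1 lost and 2 turned. Glycolysis and hypoxia genes were 4 gained, 3 lost, 1 turned and 1 kept of 14, and cholesterol synthesis and uptake genes 4 gained, 3 lost, 3 turned and 1 kept of 19. Immediate early genes were 4 gained, 2 lost, 2 turned and 1 kept of 18. The median organoid difference was -1.34 for the cell cycle list, -1.78 for fatty acid oxidation and -1.97 for glycolysis and hypoxia. It was -1.43 for cholesterol synthesis and uptake and 1.39 for the immediate early genes, against -0.24 over all genes tested.

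**Figure D4:**
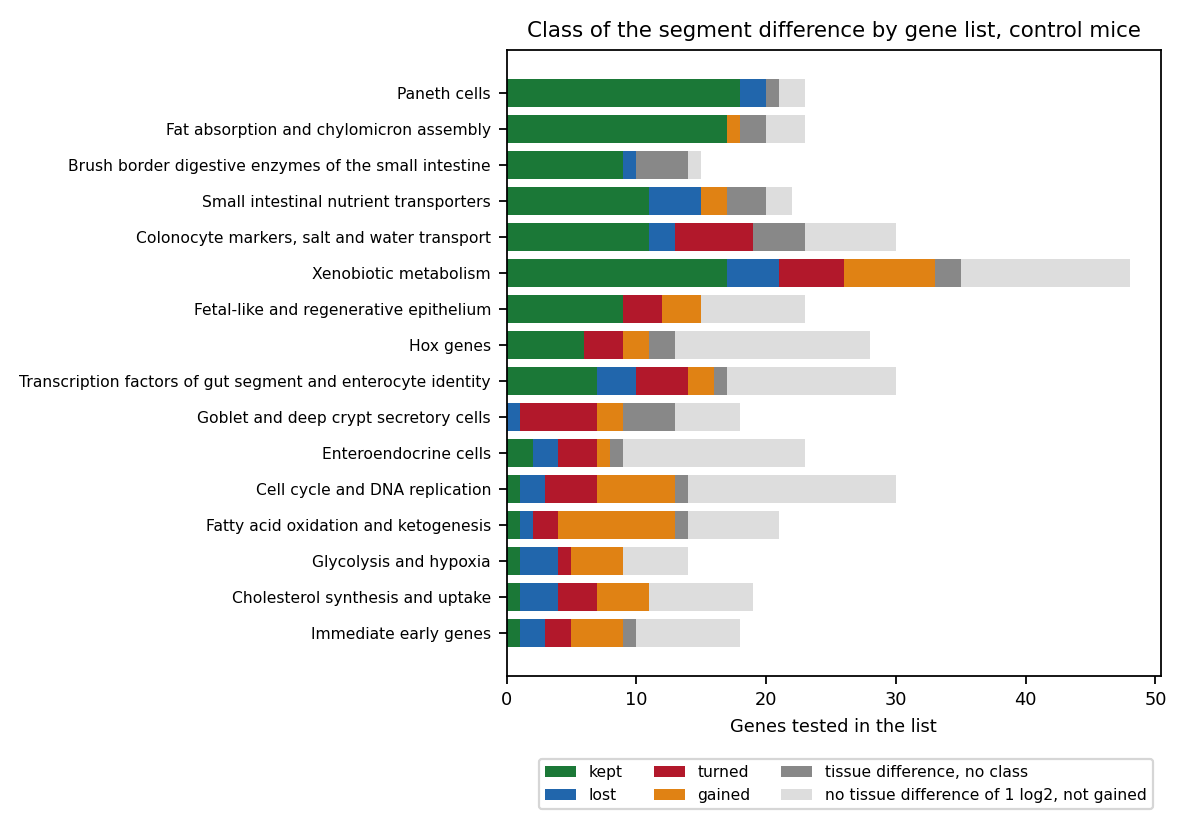
Number of tested genes in each class (x axis) for 16 gene lists (y axis), in the control libraries. Kept genes make up 18 of 23 Paneth cell genes and 17 of 23 fat absorption genes, and none of 18 goblet and deep crypt secretory genes.

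The libraries of ethanol-fed mice, which had not been used to define the classes, gave the same contrasts a second time. Of 14209 genes tested there, 53% were called in organoids, 48.9% in tissue and 46.8% for the interaction. Of the 1138 kept genes, 705 (62%) were kept in the ethanol libraries, 124 were lost and 14 turned. Of the 782 lost genes, 327 (41.8%) were lost again, 66 were kept and 108 turned. Of the 668 turned genes, 320 (47.9%) turned again, 93 were lost and 20 kept. The sign of the interaction was the same in 751 of 782 lost and 639 of 668 turned genes, which had been chosen for a called interaction. It was the same in 737 of 1138 kept genes, where a called interaction was not required. The share of sign agreement over all genes tested was not taken, nor was that of each class in the ethanol libraries. Gained genes had the same class in 648 of 1742 (37.2%), and the sign of the interaction was the same in 1531.

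**Figure D5:**
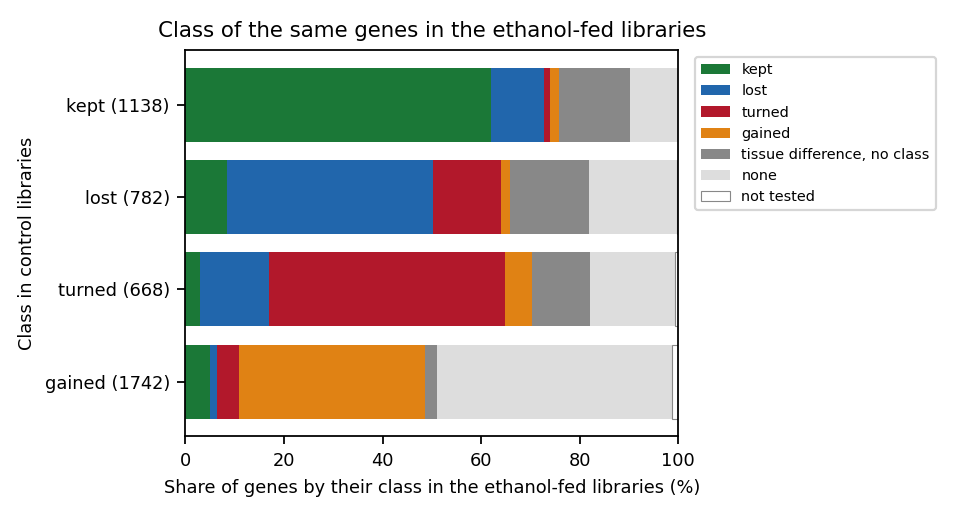
Class in the ethanol-fed libraries (x axis, percent of genes) of the genes kept, lost, turned and gained in the control libraries (y axis, number of genes in brackets). The same class was found for 62% of kept, 41.8% of lost, 47.9% of turned and 37.2% of gained genes.

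In the ethanol libraries, Hoxb9, Foxd2, Defa24 and Gata4 were again kept, with Gata4 at -6.46 in organoids and -9.73 in tissue and Foxd2 at 8.02 and 8.51. Cdx1 turned again, at -2.42 in organoids and 1.70 in tissue, and its interaction of -4.12 had an adjusted p of 8.18e-07. Klk1, Spink4, Slc12a2, Npnt, Ms4a6b and Anxa2 turned again, and Vdac3 and Tap1 were lost again. Slc43a2 turned, at 1.31 in organoids and -5.64 in tissue. Tac1 and Chgb were lost, at 0.00 and -0.10 in organoids and 2.65 and 3.08 in tissue, and Cdx2 met no class, at -0.81 and 0.75. Muc2 was kept, at 2.42 in organoids and 2.97 in tissue. The difference between the ethanol and the control interaction of these genes was not tested.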

How the data were processed

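RNA of organoids and tissue was read with the QuantSeq 3' kit, per the labels' protocols, and the authors deposited whole-number counts per gene, which were used as they are. The submitters' processing notes name Trimmomatic 0.32, BWA, HTSeq, limma and edgeR and the build mm10, with no role or setting; no strand setting is recorded, so that overlapping and antisense genes cannot be told apart. The authors' normalized table was not used. Rn45s, 18.3 to 84.3% of counts in the control libraries, was left out before library sizes were taken.

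The 13 control libraries were fitted with 1 coefficient per group in edgeR 4.0.16 (R 4.3.3): TMM normalization, filterByExpr by group, robust quasi-likelihood test, Benjamini-Hochberg adjustment over the 13707 genes tested, threshold 0.05. The same was done for the 14 ethanol libraries. Printed CPM use library sizes multiplied by their TMM factors. Fold changes against a group without counts are bounds against 3 counts over that group, and floors cover counting error only. Alternatives used limma 3.58.1 and DESeq2 1.42.0, other filters and thresholds, a donor block and fits without each library. The script was tested on simulated counts.

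Deviations of same-numbered control libraries from their group means were compared over 7564 genes. Their correlation was -0.174 to 0.175 in 16 pairs, and 2 pairs were over 0.1. With so few libraries per group, and with the deviations of the 2 colon organoid libraries mirroring each other, this cannot show whether donors were shared. The main design has no block, and a fit with the donor block is given as an alternative. No 2 libraries of a group agreed within sampling noise (lowest chi-square per degree of freedom 8.02).

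Genes were named by a rule: those with the largest differences in each class with group ranges apart, up to 4 members of each of 40 gene lists per class, the called Hox and segment factor genes, and a few fixed genes. Some genes the rule names are not reported here. The members and lists were chosen with earlier results of these data known. Gene coordinates are GRCm38, the assembly behind mm10, from the GENCODE annotation.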

Additional observations from a re-analysis of the deposited data

Results flagged for a closer look

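The segment difference itself differed between organoids and tissue for 5045 genes by the interaction test (edgeR's quasi-likelihood test with Benjamini-Hochberg adjustment), as described in the report.

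For single genes, 1 library stood far from the others of its group in 32 instances among the groups of 4, by Dixon's ratio at the 95% level, which chance alone gives in about 1 in 20 groups. Colon tissue library 1 was the odd one in 17 of the 126 entries that could be examined there, with Hoxb3 entered in duplicate. It was high for Muc2 (16800 CPM), Wfdc2 (524 CPM), Sox9 (271 CPM), Gcg (154 CPM), Hoxb13 (152 CPM), Hoxa10 (114 CPM), Cgnl1 (76 CPM), Pamr1 (55.7 CPM) and Gip (0.262 CPM). It was low for Cpt1a (110 CPM), Vdac3 (74.2 CPM), Selenbp2 (64.8 CPM), Paqr5 (35.7 CPM), Igdcc4 (27.9 CPM), Tbx3 (19.4 CPM), Gyk (14.9 CPM) and Ccl25 (2.62 CPM).

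Colon tissue library 2 stood apart for Slfn2 (2.05 CPM), Slc2a2 (0.878 CPM), Gata4 (0.585 CPM) and Slc6a19 (0.293 CPM), library 3 for Treh (0.259 CPM) and library 4 for Cyp2b10 (0.57 CPM) and Defa17 (0.19 CPM). Jejunum organoid library 2 stood apart for Gcg (266 CPM), Mrps22 (69.2 CPM), Nr1i3 (24 CPM), Pamr1 (0.243 CPM) and Hoxb13 (0.243 CPM), library 1 for Cgnl1 (9.24 CPM), library 3 for Cp (0.224 CPM) and library 4 for Slfn2 (0.228 CPM). Values under 1 CPM are of 1 to 3 counts beside libraries at or near 0.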

How the results depend on the processing

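With a spread per group (limma-voom) 1092 genes were called in organoids and 1578 for the interaction, and 309 were kept, 193 lost, 177 turned and 306 gained. At a minimum of 2 on the log2 scale 622 were kept, 454 lost and 276 turned, and at 0.5 1125 were gained. Leaving out 1 library at a time gave 3205 (without jejunum tissue 1) to 6453 (without colon organoid 1, and likewise without 2) calls in tissue, 5484 to 8045 in organoids and 4308 to 7136 for the interaction. It gave 876 to 1496 kept, 647 to 1039 lost, 521 to 1242 turned and 1479 to 2669 gained genes, and the most turned and gained without colon organoid 1. The cause was not tested. The other alternatives, including only genes with a count in each control group (chosen after seeing the data), stayed within 1.5 times of each count.

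With the donor number as a replicate block 411 genes turned in place of 668, and the other counts were within 1.5 times: 2935 calls in tissue, 4568 in organoids, 3452 for the interaction, 782 kept, 555 lost and 1184 gained. The labels do not say whether same-numbered libraries share a mouse.

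Of 87 named genes with a count in every group, no called interaction changed sign in an alternative that gave a value. It was no longer called for 36 with a spread per group, 4 with limma-voom, 3 with the block, 1 with DESeq2's size factors and 4 without a library: Sis in 10 of the 13 such fits, and Clu, Gyk and Tbx3 in 1 each. The 2 colon organoid libraries, with 818240 counts in the shallower one, limit each organoid contrast.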
